A study of Mus musculus with 15 samples.

Results

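The genes described here encode the subunits of the transcription factor NF-κB and proteins that hold it back or work with it. They were followed in mouse embryonic fibroblasts (MEFs) of an established line, Balb/c/3T3 clone A31. Chosen by name were the subunit genes *Nfkb1*, *Nfkb2*, *Rel*, *Rela* and *Relb*, and the IκB family genes *Nfkbia*, *Nfkbib*, *Nfkbie* and *Nfkbiz*. The last was *Tnfaip3*, which encodes a ubiquitin-editing inhibitor of the pathway. All 10 genes were on the array, with 15 of its 56605 probes, and all 15 probes passed the filter on dim signals, as did 29334 probes in all. The 5 groups held 3 arrays each. Untreated MEFs served as control, and the treated cells received 10 ng/ml of TNFα, 5 ng/ml of TGFß1, 1 ng/ml of IL-1β, or 20 ng/ml of IL-6 along with 25 ng/ml of its soluble receptor sIL-6Rα (the IL-6 group). All groups were of the same line, without any other allele or agent. The study used TNFα and TGFß1 to set an inflammatory and a fibrotic state of the fibroblast. RNA of the TNFα, TGFß1 and control arrays was taken after 24 h, as stated in the study, while the labels give 24 or 72 h for all cells and the sources used here do not single out the time for IL-1β and IL-6. The line is a single clone and does not stand for the fibroblasts of a tissue.

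NF-κB dimers are kept in the cytoplasm by IκB proteins. Signals from the TNF and IL-1 receptors converge on the IκB kinase (IKK) complex, which marks IκB for degradation, so that the dimers enter the nucleus and switch on genes of inflammation. Among these targets are genes of IκB proteins and of *Tnfaip3*, which close a negative feedback loop, and genes of subunits, whereas IL-6 signals mainly through STAT3 and TGFß1 through SMAD proteins.

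The promoters of these genes are shown first, because sites for NF-κB in them are the known base of the feedback loop. The table of promoters, from RefSeq (GRCm38.p6, 250 bases before to 50 bases after an annotated start), held 7 of the 10 genes, *Rela*, *Rel*, *Nfkb2*, *Nfkbia*, *Nfkbib*, *Nfkbie* and *Tnfaip3*. *Nfkb1*, *Relb* and *Nfkbiz* are named only. Both strands were searched for the κB consensus, and 5 of the 7 genes had a match in at least 1 window, while *Rela* and *Nfkbib* had none in these windows. Of all genes in the table, 9.55% had a match, and of all 32851 windows 8.46%. The following stretches are the 150 bases before the first annotated start with a match, 5′ to 3′ on the strand of the gene, with κB matches in capitals.
Nfkb2, chr19:46304587-46304736, strand +: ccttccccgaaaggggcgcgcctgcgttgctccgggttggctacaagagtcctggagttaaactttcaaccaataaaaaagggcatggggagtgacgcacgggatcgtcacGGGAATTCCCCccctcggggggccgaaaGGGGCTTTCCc
Rel, chr11:23770970-23771119, strand -: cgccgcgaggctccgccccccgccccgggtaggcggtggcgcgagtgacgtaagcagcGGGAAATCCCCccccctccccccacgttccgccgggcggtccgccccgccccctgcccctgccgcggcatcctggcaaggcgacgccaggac
Nfkbia, chr12:55492648-55492797, strand -: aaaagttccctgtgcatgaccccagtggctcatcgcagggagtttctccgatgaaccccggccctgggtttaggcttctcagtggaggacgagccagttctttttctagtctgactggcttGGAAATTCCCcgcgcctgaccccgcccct
Nfkbie, chr17:45555550-45555699, strand +: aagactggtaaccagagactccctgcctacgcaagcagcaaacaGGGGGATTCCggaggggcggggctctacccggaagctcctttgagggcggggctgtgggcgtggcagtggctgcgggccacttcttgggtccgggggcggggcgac
Tnfaip3, chr10:19015411-19015560, strand -: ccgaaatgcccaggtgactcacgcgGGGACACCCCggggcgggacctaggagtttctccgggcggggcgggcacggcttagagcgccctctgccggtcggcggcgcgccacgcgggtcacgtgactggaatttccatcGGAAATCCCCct
Counted in bases from the start, the match of *Nfkbia* began at -29 and that of *Nfkbie* at -106. *Tnfaip3* had 2 matches, at -125 and -12 from 1 of its 2 annotated starts, and none in the window of the other start. *Rel* and *Nfkb2* each had a pair of matches that overlap, shifted by 1 base, which makes a longer run of capitals. *Nfkb2* had a further match at -11 from that start. The windows of its other starts held 2 and 1 matches, and 1 match was the same site seen from both starts. The motif TTCNNNGAA, to which STAT proteins bind, was in 1 of the 7 genes, *Nfkb2*, at -148 from the first start, and in 8.30% of all windows. A match of letters is a description and does not show that a site is bound.

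**Figure D1:**
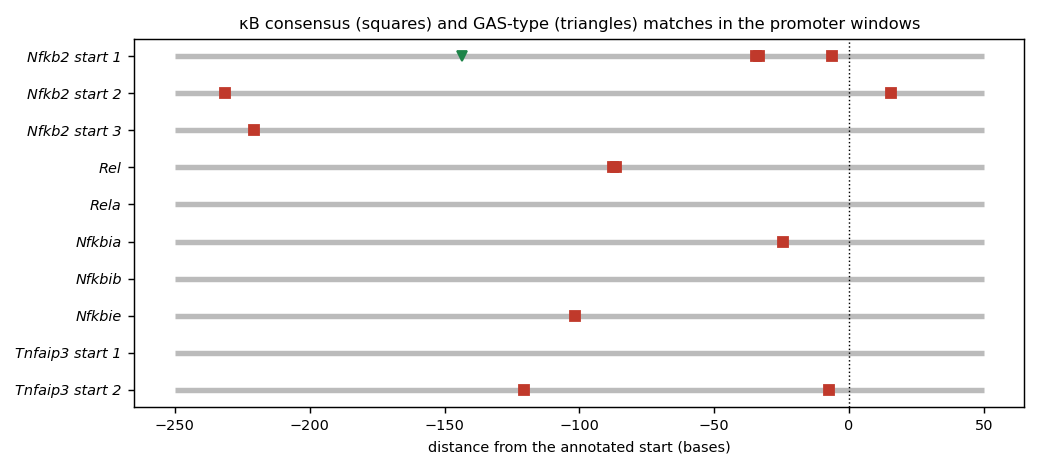
Motif matches in the promoter windows of 7 of the genes. Each grey line is a window from 250 bases before to 50 bases after an annotated start (x axis, distance from the start in bases), squares are κB consensus matches and the triangle is the TTCNNNGAA match; *Rela*, *Nfkbib* and 1 start of *Tnfaip3* have none.

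Levels are given as log2 of the background-subtracted spot signal minus the array's 75th percentile, so that a level of 0 is the brightness of the spot at that percentile. Levels of different probes were not compared. The 75th percentile itself was 508 to 683, and 48.3% to 54.9% of probes were well above background on an array. The arrays lay on 2 slides, and each group had arrays on both, but not evenly. Most control, IL-1β and IL-6 arrays were on slide 1, and most TNFα and TGFß1 arrays on slide 2. Slide and treatment are thus partly mixed where TNFα or TGFß1 is compared with control, IL-1β or IL-6, but not where they are compared with each other. By their label numbers the arrays formed 3 runs of 5, in which every group occurred once. Unless stated, values and shares are from a fit without slide or run, which leaves this pairing of arrays out. A gene was called when q was below 0.05 (limma's moderated test, two-sided, adjusted by Benjamini-Hochberg over all 29334 probes) and the absolute fold-change at least 1.5, and the probe with the highest mean signal stood for a gene. The 8 fibroblast markers examined, such as *Col1a1* and *Pdgfra*, were well above background on all 15 arrays. Their summed level on a linear scale was 625 to 776 in controls, 424 to 518 with TNFα, 666 to 845 with TGFß1, 547 to 781 with IL-1β and 677 to 803 with IL-6. With TNFα 4 of the 8 were called lower (3 with the slide in the model), and with TGFß1 1 was called higher and 1 lower, and the part of this in the results was not tested. Of 8 leukocyte markers, *Ptprc*, *Adgre1*, *Tyrobp* and *Lyz2* were not well above background on any array and *Cd79a* was on 2, while *Csf1r*, *Itgam* and *Cd3e* were well above background on all 15 arrays. Of 4 endothelial markers, *Cdh5*, *Kdr* and *Tek* were not well above background on any array and *Pecam1* was on all 15. The summed leukocyte level was 6.53 to 14.7 in controls, 7.40 to 15.1 with TNFα, 7.56 to 13.6 with TGFß1, 7.30 to 15.7 with IL-1β and 6.98 to 15.2 with IL-6, and the summed level of endothelial markers was 0.0655 to 0.0973 over all groups. Of 6 epithelial markers, *Krt18* was well above background on 10 arrays, *Krt8* on 4, *Krt14* on 3 and *Epcam* on 1, while *Cdh1* and *Krt5* were on none. Their summed levels were 0.0574 to 0.422 over all groups, and 2 were tested, of which 1 was called higher with TGFß1. None of the 4 leukocyte and endothelial genes tested was called in any comparison with control. Each array measured a whole culture, so that more RNA of a gene per cell and more cells with that RNA cannot be told apart.

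**Figure D2:**
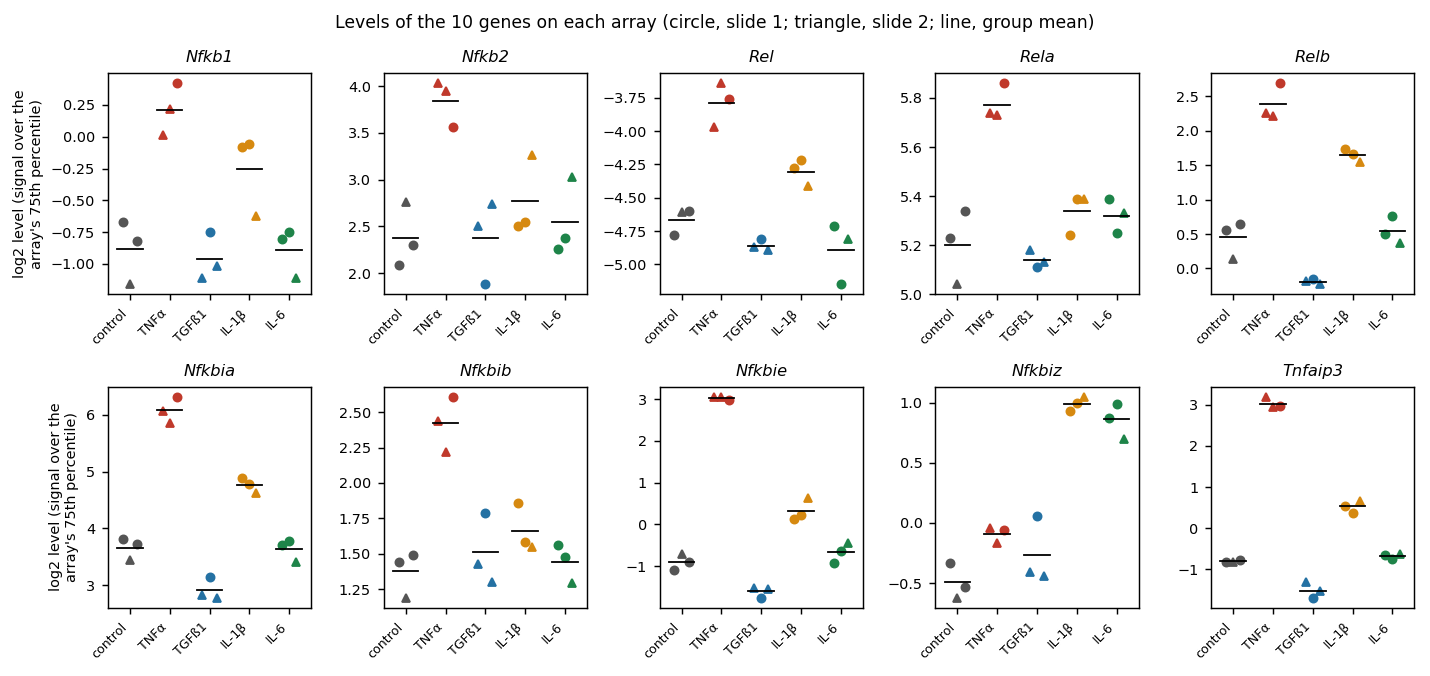
Levels of the 10 genes on the 15 arrays. Each panel is a gene, the y axis is the log2 level, points are arrays (circles on slide 1, triangles on slide 2) and lines are group means of 3 arrays; TNFα arrays are the highest for 9 genes, and for *Nfkbiz* the IL-1β and IL-6 arrays are.

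TNFα raised 8 of the 10 genes, and the inhibitors *Nfkbie* and *Tnfaip3* the most. Of all 13523 named genes tested by their representative probe, 4.61% were called higher with TNFα. None of the 10 was called lower, and the median of their log2 fold-changes was 1.28, with a range of 0.40 to 3.93, against a median of 0.00 over all named genes. The fold-changes of the different genes were not tested against each other. These genes and the lists below were chosen with earlier results of these data known. The shares of all named genes are therefore given for description and are no test of a set.

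*Nfkbie* encodes IκBε, an inhibitor that binds subunit dimers in the cytoplasm. Its log2 level was -1.09, -0.70 and -0.90 on the control arrays 1, 6 and 11, and 3.06, 3.06 and 2.97 on the TNFα arrays 4, 9 and 14. The groups did not overlap, and their SD was 0.19 in controls and 0.05 with TNFα (n = 3 each). The log2 fold-change was 3.93 (standard error 0.16, q = 4.13e-08), or 15.2-fold. *Tnfaip3* lay at -0.83, -0.82 and -0.77 in controls and at 3.20, 2.94 and 2.96 with TNFα. Its log2 fold-change was 3.84 (standard error 0.12, q = 8.65e-09), or 14.3-fold. Here too no array of 1 group came near the other, with an SD of 0.03 in controls and 0.14 with TNFα (n = 3 each).

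*Nfkbia* encodes IκBα, the inhibitor that is degraded and made anew most quickly in this pathway. It lay at 3.82, 3.44 and 3.72 in controls and at 6.06, 5.85 and 6.32 with TNFα, and rose by 2.42 on the log2 scale (standard error 0.16, q = 2.46e-06), or 5.34-fold. *Nfkbib*, the gene of IκBβ, was at 1.19 to 1.49 in controls and 2.22 to 2.61 with TNFα (1.05, standard error 0.16, q = 0.00093). Its other probe, which names another transcript of the gene, gave 1.02 (q = 0.0107). *Nfkbiz* was the exception among the IκB genes. This gene encodes IκBζ, a nuclear IκB protein that works with NF-κB on a subset of its targets. It lay at -0.33, -0.62 and -0.53 in controls and at -0.04, -0.17 and -0.06 with TNFα. All TNFα arrays were above all control arrays, but the difference was small (log2 fold-change 0.40, 95% confidence interval 0.10 to 0.71) and did not pass the test (q = 0.0837). With the slide in the model q was 0.0182 and the change, 0.46, was below the fold-change criterion. The other probe of the gene gave 0.49 (q = 0.245) and was called with the slide in the model (0.66, q = 0.00355).

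Among the subunits, *Relb* rose most. RelB pairs with the product of *Nfkb2* in the non-canonical branch of the pathway. *Relb* lay at 0.56, 0.14 and 0.64 in controls and at 2.26, 2.21 and 2.69 with TNFα. The log2 fold-change was 1.94 (standard error 0.16, q = 1.30e-05), or 3.84-fold, and the other probe gave 1.80 (q = 3.63e-05). *Nfkb2* was at 2.09, 2.76 and 2.30 in controls and at 4.03, 3.95 and 3.56 with TNFα (1.46, standard error 0.29, q = 0.00588). The arrays spread by slide, and the 2 probes of *Nfkb2* did so in opposite directions. In controls, the array on slide 2 (control 6) was the highest with the representative probe and the lowest, at 1.98 against 2.43 and 2.73, with the other. Both probes were called, and they came closer with the slide in the model (1.25 and 1.13, against 1.46 and 0.99).

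*Nfkb1* encodes the precursor of the subunit that RelA most often pairs with. It was at -1.16 to -0.67 in controls and 0.01 to 0.42 with TNFα (1.10, standard error 0.19, q = 0.00256). *Rel*, the gene of c-Rel, had a dim probe, with a mean signal of 23.9 in controls and 42.0 with TNFα, and the signal of 1 IL-6 array was not well above background. Its log2 fold-change of 0.87 (standard error 0.13, q = 0.000813) was 0.35 (q = 0.0174) with another background correction (normexp), which ends the call. *Rela* encodes RelA, the main activating subunit. Its probe was at 5.04 to 5.34 in controls and 5.73 to 5.86 with TNFα (0.57, standard error 0.10, q = 0.00282). This is 1.49-fold, just under the criterion, and it was called with the slide in the model (0.59, q = 0.00135). The dimmer probe of *Rela* gave 0.41 (q = 0.225).

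**Figure D3:**
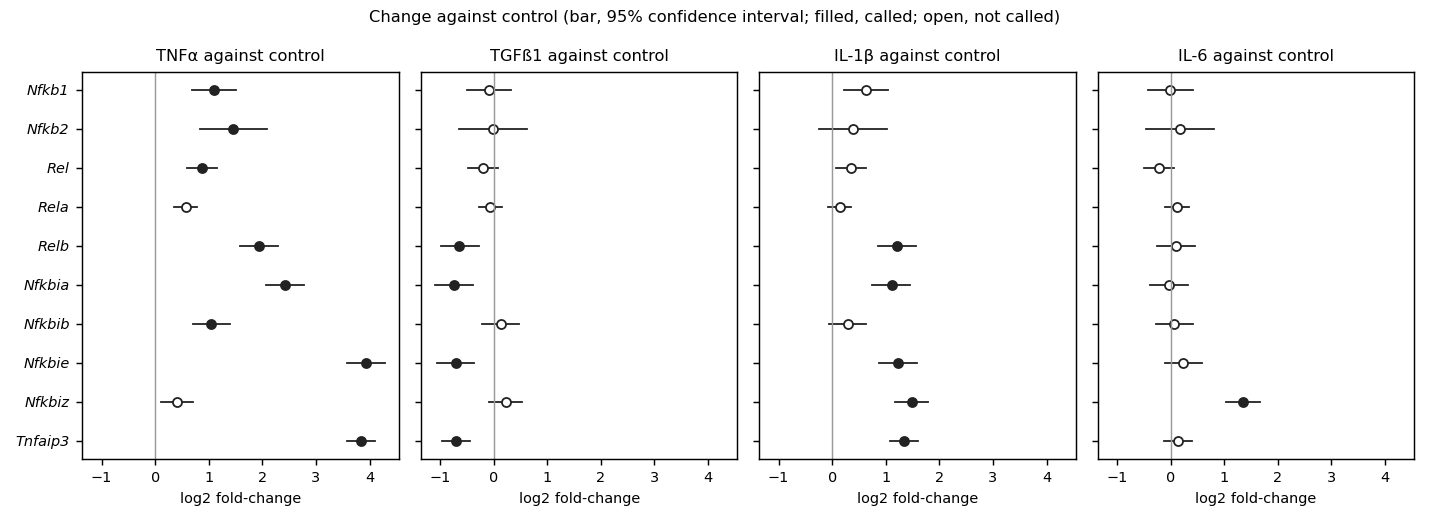
Log2 fold-changes of the 10 genes against control for the 4 cytokines. Circles are values of the fit over 15 arrays and bars 95% confidence intervals, filled circles are called and open circles are not; 8 genes are filled for TNFα on the right of 0, 4 for TGFß1 on the left, 5 for IL-1β and only *Nfkbiz* for IL-6.

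With TGFß1, 4 of the 10 genes fell and none rose. They were the feedback inhibitors *Nfkbia*, *Nfkbie* and *Tnfaip3*, and *Relb*. Of all named genes tested, 12.7% were called lower with TGFß1, so that calls were common in this comparison, and the median of the 10 genes was -0.14, against 0.05 over all named genes. All comparisons with control share the 3 control arrays.

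*Nfkbia* lay at 2.82, 3.15 and 2.78 on the TGFß1 arrays 2, 7 and 12, below the control arrays (3.44 to 3.82). It fell by 0.74 on the log2 scale (standard error 0.16, q = 0.00625). *Tnfaip3* lay at -1.32, -1.69 and -1.54 and fell by 0.71 (standard error 0.12, q = 0.00119). *Nfkbie* lay at -1.51, -1.75 and -1.55 and fell by 0.71 (standard error 0.16, q = 0.0075). For these genes the TGFß1 arrays were below every control array on both slides, and within slide 1 and slide 2 the difference of *Nfkbia* was -0.61 and -0.64.

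*Relb* was at -0.18, -0.15 and -0.23 with TGFß1 and fell by 0.64 (standard error 0.16, q = 0.0136). With the slide in the model the difference was -0.54 (q = 0.00306), which is under the fold-change criterion. So were -0.58 without control 1 (q = 0.043) and -0.54 without control 11, where q (0.0552) did not pass either. The other *Relb* probe was called in both fits (-0.77 at q = 0.00676 and -0.67 at q = 0.00105). *Nfkb1* (-0.08, q = 0.787), *Rel* (-0.19, q = 0.307), *Rela* (-0.06, q = 0.697), *Nfkbib* (0.13, q = 0.581) and *Nfkbiz* (0.23, q = 0.273) were not called. The probes of *Nfkb2* gave -0.01 (q = 0.986) and -0.53 (q = 0.101). All 4 calls rested on changes under 2-fold, and with a criterion of 2-fold none of the 10 genes was called, although 4 had an unadjusted p under 0.05 in limma. With normexp background correction *Nfkbia* was called of the 10 genes and the other 3 were not (-0.58 to -0.55). With scaling to the array median *Relb* (q = 0.134) and *Nfkbia* (q = 0.0832) were not called.

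IL-1β raised 5 of the 10 genes, *Nfkbiz*, *Tnfaip3*, *Nfkbie*, *Relb* and *Nfkbia*. Few genes were called in this comparison, 47 or 0.348% of the named genes tested being called higher. Over all probes 74 were called, and 320 with the slide and the run as blocks. The median of the 10 genes was 0.87 (range 0.14 to 1.49), against -0.01 over all named genes. Unlike with TNFα, *Nfkbiz* had the largest value.

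*Nfkbiz* lay at 0.93, 1.00 and 1.05 on the IL-1β arrays 5, 10 and 15, above the control arrays (-0.62 to -0.33). The log2 fold-change was 1.49 (standard error 0.14, q = 0.000552), or 2.80-fold, and it was 1.39 within slide 1 and 1.67 within slide 2. The other probe gave 1.14 and was called only with the slide in the model (q = 0.144 without and 0.00119 with it). *Tnfaip3* was at 0.55, 0.37 and 0.67 and rose by 1.34 on the log2 scale (standard error 0.12, q = 0.000348). *Nfkbie* was at 0.12, 0.22 and 0.64 (1.23, standard error 0.16, q = 0.00577). For both inhibitors the IL-1β arrays lay between the control and the TNFα arrays without overlap.

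*Relb* was at 1.74, 1.67 and 1.55 with IL-1β (1.21, standard error 0.16, q = 0.00706), and *Nfkbia* at 4.89, 4.78 and 4.62 (1.11, standard error 0.16, q = 0.0132). The call of *Nfkbia* was lost without control 6, control 11, IL-1β 5 or IL-1β 10, with q up to 0.0771, while the value stayed at 1.00 or above. *Nfkb1* was at -0.08, -0.06 and -0.62 and was not called (0.63, q = 0.563). It was called with the slide in the model at the same value (q = 0.0093). The low array, IL-1β 15, was the one on slide 2, and control 6, the lowest of the controls, was on that slide too. *Nfkb2* (0.39), *Rel* (0.36), *Nfkbib* (0.29) and *Rela* (0.14) were not called, with q of 0.902 or higher. The fit of the IL-1β and control arrays alone, with 6 arrays, called *Nfkbiz* alone of the 10 genes, with q of 0.0541 to 0.21 for the other 4. Scaling to the array median ended the calls of *Relb* (q = 0.217) and *Nfkbia* (q = 0.363).

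With IL-6 and its soluble receptor, *Nfkbiz* rose and the other 9 genes were not called. It lay at 0.87, 0.99 and 0.70 on the IL-6 arrays 3, 8 and 13, with no overlap with controls. The log2 fold-change was 1.35 (standard error 0.14, q = 0.00408), or 2.55-fold, and 13 of all named genes tested, 0.0961%, were called higher in this comparison. Within slide 1 it was 1.36 and within slide 2 it was 1.32. The other probe gave 1.44 (q = 0.091) and was called with the slide in the model (q = 0.00099). Without the shared spread of the other groups, in a fit of 6 arrays, the representative probe kept its value of 1.35 but not its call (q = 0.275). In that fit no probe of the array was called, with 695 at an unadjusted p under 0.05 in limma. A test of so many probes gives such p-values without any difference, so that this number is no sign of changes. With scaling to the array median the value of *Nfkbiz* was 1.33 and q was 0.068. The call held whichever array was left out, with q from 0.00234 to 0.0313.

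The 9 genes that were not called with IL-6 had log2 fold-changes from -0.22 (*Rel*) to 0.24 (*Nfkbie*). The 95% confidence interval was -0.38 to 0.33 for *Nfkbia*, -0.13 to 0.39 for *Tnfaip3* and -0.11 to 0.59 for *Nfkbie*. The IL-6 arrays overlapped the control arrays for *Nfkbia* and *Nfkbie*, whereas for *Tnfaip3* all 3 IL-6 arrays, at -0.65, -0.74 and -0.62, were above the controls by a small margin.

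The cytokines were also compared directly, at doses that differ between them. In IL-1β-treated MEFs 5 of the genes were lower than in TNFα-treated MEFs (*Nfkbie*, *Tnfaip3*, *Nfkbia*, *Nfkbib* and *Relb*) and *Nfkbiz* was higher. Of all named genes tested, 2.22% were called lower and 4.29% higher with IL-1β than with TNFα. The largest differences were those of *Nfkbie* (-2.70, standard error 0.16, q = 3.13e-06), 6.49-fold lower, and *Tnfaip3* (-2.50, standard error 0.12, q = 7.40e-07), 5.67-fold lower. *Nfkbia* differed by -1.31 (q = 0.000592), *Nfkbib* by -0.76 (q = 0.0141) and *Relb* by -0.73 (q = 0.0209). The other probe of *Nfkbib* gave -0.83 and was not called (q = 0.0515), but was with the slide in the model (-0.96, q = 0.00369). *Nfkbiz* differed the other way, by 1.08 (standard error 0.14, q = 0.000812), and its other probe by 0.65 (q = 0.174). The call of *Relb* was lost without TNFα 14, IL-1β 10 or IL-1β 15, and that of *Nfkbib* without these or TNFα 4. Both calls were also lost with scaling to the array median (q = 0.177 and 0.139) and in the fit of the compared groups alone (q = 0.0863 and 0.0702), and that of *Relb* without a filter on dim probes (q = 0.0568).

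*Nfkb2* (-1.07, q = 0.0502) and *Nfkb1* (-0.47, q = 0.197) were not called between IL-1β and TNFα, and both were with the slide in the model (-0.86 at q = 0.000501 and -0.59 at q = 0.00209). *Rel* (-0.51, q = 0.036) and *Rela* (-0.43, q = 0.0258) passed on q but not on the fold-change criterion. For all genes but *Nfkbiz* the mean was thus lower with IL-1β, and with the slide added 8 of the 10 genes were called, 7 of them lower. The shares of all named genes for this comparison are from the fit without the slide and do not apply to that count.

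Comparisons of IL-6 with TNFα and of IL-1β with IL-6 were added after the values were seen. In IL-6-treated MEFs, 8 of the 10 genes were lower than in TNFα-treated MEFs and *Nfkbiz* was higher, where 4.01% and 6.76% of all named genes tested were called lower and higher. *Tnfaip3* was 13.1-fold lower (-3.71, standard error 0.12, q = 1.33e-08) and *Nfkbie* 12.9-fold lower (-3.69, standard error 0.16, q = 8.84e-08). *Nfkbiz* was 1.92-fold higher (0.94, standard error 0.14, q = 0.000965), and here its other probe was called too (0.95, q = 0.0299). *Rela*, at -0.45 (q = 0.0127), was under the fold-change criterion. The difference of *Rel* was -1.10 (q = 0.000151), and -0.41 and not called with normexp. That of *Nfkb2* was -1.29 (q = 0.0128) and was not called without TNFα 4, IL-6 3 or IL-6 8.

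Between IL-1β and IL-6, 4 genes were higher with IL-1β, *Tnfaip3* (1.20, q = 0.000884), *Nfkbia* (1.13, q = 0.00905), *Relb* (1.11, q = 0.00976) and *Nfkbie* (0.99, q = 0.0202), where 0.407% of all named genes tested were called higher. Of these, *Relb* and *Nfkbia* were not called without IL-1β 5 or without IL-6 13, *Nfkbie* was not called without IL-1β 10, IL-1β 15, IL-6 3 or IL-6 8, and *Tnfaip3* was called whichever array was left out. With scaling to the array median *Relb* (q = 0.204) and *Nfkbia* (q = 0.188) were not called, and without a filter on dim probes *Nfkbie* was not (q = 0.0661). In the fit of these 6 arrays alone none was called, and 6 had an unadjusted p under 0.05 in limma. *Nfkbiz* did not pass the test (0.14, 95% confidence interval -0.17 to 0.45, q = 1.00), and its arrays overlapped. Its other probe gave -0.30 (q = 1.00).

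**Figure D4:**
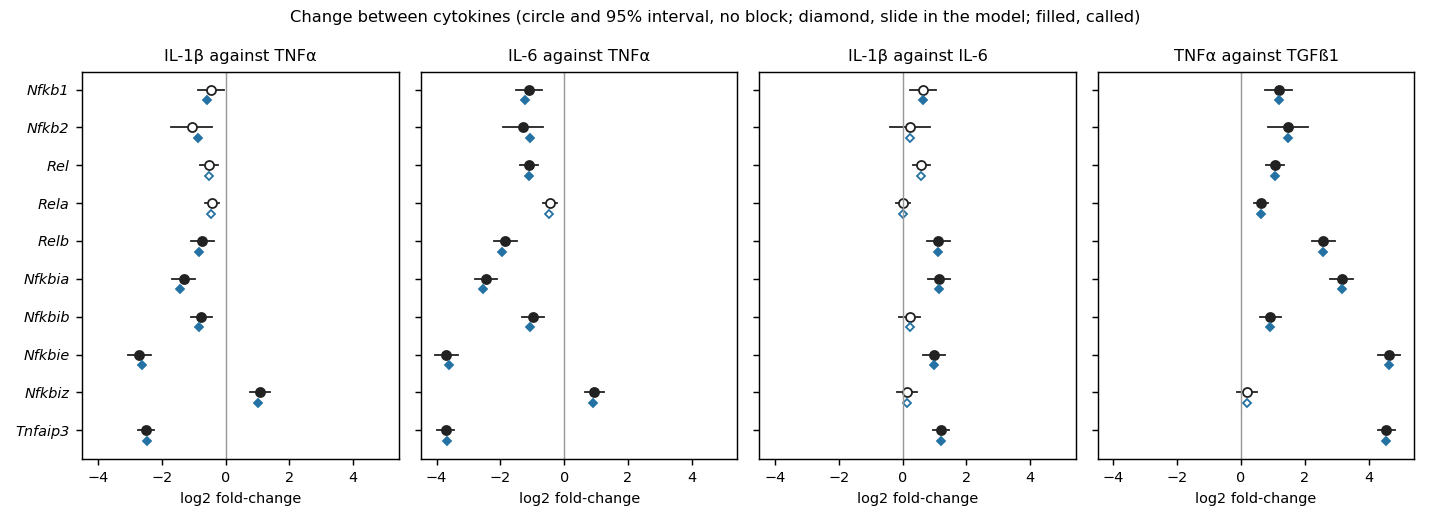
Log2 fold-changes of the 10 genes between cytokines. Circles with bars are values and 95% confidence intervals of the fit without a block, diamonds are values with the slide in the model, and filled symbols are called; *Nfkbiz* lies to the right of 0 in the first and second panels (1.08 and 0.94), where all other genes lie to the left.

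TNFα against TGFß1 was the contrast of the inflammatory and the fibrotic cytokine. Among the comparisons made, it gave the widest differences of *Nfkbie*, *Tnfaip3*, *Nfkbia* and *Relb*, though not of every gene. All genes but *Nfkbiz* were higher with TNFα, 9 of 10, where 7.50% of all named genes tested were called higher. *Nfkbie* differed by 4.63 (24.8-fold, q = 4.81e-09), *Tnfaip3* by 4.55 (23.4-fold, q = 1.09e-09), *Nfkbia* by 3.16 (8.91-fold, q = 1.53e-07) and *Relb* by 2.58 (5.97-fold, q = 7.02e-07). The subunits *Nfkb2* (1.47), *Nfkb1* (1.18), *Rel* (1.07) and *Rela* (0.63), and *Nfkbib* (0.92), had smaller values. The dimmer probe of *Rela* gave 0.64 and was not called (q = 0.0536), but was with the slide in the model (q = 0.00781). The value of *Rel* was 0.35 and not called with normexp, and *Rela* (0.52, q = 0.116) and *Nfkbib* (0.80, q = 0.0557) were not called with scaling to the array median. *Nfkbiz* had a difference of 0.18 (95% confidence interval -0.13 to 0.49, q = 0.489), and 1 TGFß1 array, at 0.06, was above all 3 TNFα arrays.

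Read along the groups, *Nfkbia*, *Nfkbie*, *Tnfaip3* and *Relb* had the same order of mean levels, apart from IL-6 and control. TNFα was highest, followed by IL-1β, then IL-6 and control, and TGFß1 was lowest. TNFα and IL-1β, IL-1β and IL-6, and control and TGFß1 differed by the test for each of these 4 genes. IL-6 and control did not, and for *Nfkbia* the control mean was above the IL-6 mean (3.66 ± 0.20 and 3.63 ± 0.20, SD, n = 3). *Nfkbiz* had another order, with IL-1β (0.99 ± 0.06) and IL-6 (0.86 ± 0.15) on top, then TNFα (-0.09 ± 0.07), TGFß1 (-0.27 ± 0.28) and control (-0.49 ± 0.15). IL-1β and IL-6 did not differ by the test, nor did any pair of the last 3 groups, whereas IL-6 and TNFα did. For *Nfkb1*, *Nfkb2*, *Rel*, *Rela* and *Nfkbib* the TNFα mean was highest and the IL-1β mean next, and IL-1β, IL-6 and TGFß1 were not called against control.

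Over the 15 arrays, which share groups and slides, the levels of *Nfkbie* and *Tnfaip3* had a Pearson's r of 0.995, and those of *Relb* and *Nfkbia* of 0.986. The r between *Nfkbiz* and the other 9 genes ranged from -0.07 to 0.27, whereas among the other 9 genes it was 0.57 to 0.99. Among 13486 other named genes, the most like *Nfkbie* were *Tnfaip3*, *Ccl5* (0.989) and *Tnip1* (0.981). The same genes led for *Tnfaip3*, with *Ccl5* at 0.994. For *Nfkbia* they were *Glrx*, *Relb* and *Plscr1* (0.986, 0.986 and 0.980), and for *Relb* they were *Nfkbia*, *Fas* and *Glrx* (0.976 to 0.986). For *Nfkbiz* they were *Il6* (0.859), *Susd6* (0.821) and *Lcn2* (0.821). *Rela* was left out here, since it was called in no comparison with control. *Nfkb1* was most like *Grb14* (0.972), *Rel* like *Twist2* (0.960) and *Nfkbib* like *Slc25a37* (0.964). The representative probe of *Nfkb2* was most like those of *LOC547349* (0.966) and *H2-Q8* (0.954), the latter a class I histocompatibility gene with near-identical copies from which its probe may not tell it apart. These correlations describe 15 arrays of 5 groups, and no p is given for them.

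The rest of the IκB family gave 1 gene that was tested, *Bcl3*, while *Nfkbid* did not pass the filter. *Bcl3* encodes a nuclear IκB protein that binds the DNA-binding subunits without transactivation domain. It rose with TNFα (1.13, q = 0.00244), IL-1β (1.23, q = 0.0223) and IL-6 (1.65, standard error 0.20, q = 0.00779) and fell by 1.62 with TGFß1 (q = 0.000131). It was thus called higher with IL-6, as *Nfkbiz* was. Its differences between IL-1β and TNFα (0.09, q = 0.836) and between IL-6 and TNFα (0.52, q = 0.122) did not pass the test.

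Of the IKK complex and the kinases above it, all 10 genes were tested. With TNFα 1 was called higher (of all named genes 4.61% were), *Ikbke*, an IKK-related kinase (1.74, q = 1.45e-05), and the median of the list was -0.03. With TGFß1 2 were called lower (of all named genes 12.7% were), *Ikbke* (-1.12, q = 0.000246) and *Map3k14*, the kinase of the non-canonical branch (-0.88, q = 0.0184). With IL-1β and IL-6 limma called none, and 2 and 0 had an unadjusted p under 0.05.

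Of the ubiquitin and adaptor regulators, 17 of 18 genes were tested, all but *Tnip3*. With TNFα 5 were called higher, against 4.61% of all named genes, and none lower, with a median of 0.14. The largest rises were those of *Traf1*, an adaptor (4.55, q = 0.000146), *Tnip1*, a partner of the *Tnfaip3* product (2.34, q = 1.42e-06), and *Birc3*, a ubiquitin ligase at the TNF receptor (2.25, q = 9.34e-05). With TGFß1 3 of 17 were called lower, against 12.7% of all named genes, the deubiquitinase gene *Cyld* (-1.31, q = 5.77e-05), *Birc3* (-1.0, q = 0.0114) and *Birc2* (-0.64, q = 0.0175), of which *Birc2* was not called with the slide in the model (-0.57). With IL-1β 1 was called higher, against 0.348% of all named genes, *Tnip1* (0.81, q = 0.0469), and with IL-6 none, with 1 at an unadjusted p under 0.05.

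Of 26 classical NF-κB target genes, 23 were tested, all but *Bcl2a1a*, *Csf3* and *Il1b*. Several of them, such as *C3*, *Ccl2*, *Cxcl1*, *Cxcl5* and *Icam1*, belong to the gene set that the study chose on these arrays, so that their direction with TNFα and TGFß1 is not independent evidence. With TNFα 17 were called higher, against 4.61% of all named genes, and none lower, with a median of 3.03. The chemokine gene *Ccl5* (8.36, q = 1.77e-08), *Saa3*, an acute-phase gene (7.82, q = 1.04e-05), and the adhesion gene *Icam1* (5.92, q = 4.13e-08) had the largest rises. With TGFß1 10 were called lower and 2 higher, against 12.7% and 8.51% of all named genes, with a median of -0.99. The largest falls were those of the pentraxin gene *Ptx3* (-5.43, q = 2.51e-06), which was well above background on 2 of 3 TGFß1 arrays, *Cxcl5* (-4.12, q = 2.60e-07) and *Cxcl1* (-3.09, q = 2.49e-06), both genes of neutrophil chemokines. The rises were those of the cyclooxygenase gene *Ptgs2* (2.12, q = 0.0037) and of *Cxcl2*, which was well above background on 0 of 3 control arrays and on 1 of 3 TGFß1 arrays, so that no fold is given (q = 0.046).

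With IL-1β 10 target genes were called higher, against 0.348% of all named genes, and none lower, with a median of 1.51. The largest rises were those of *Saa3* (7.43, q = 0.000243), *Lcn2*, which encodes an iron-sequestering protein (6.52, q = 0.0093), and *Cxcl5* (5.13, q = 1.77e-07). Between IL-1β and TNFα the difference of *Saa3* was -0.40 (q = 0.779), whereas *Ccl5*, which rose by 2.83 with IL-1β (q = 0.00149), was lower than with TNFα (-5.53, q = 1.62e-06). With IL-6 limma called none of the 23, although 9 had an unadjusted p under 0.05, and the median was 0.45. *Il6*, the gene most like *Nfkbiz* over the arrays, was not called with TNFα (0.00, q = 0.997), IL-1β (1.5, q = 0.14) or IL-6 (1.52, q = 0.254) and was called lower with TGFß1 (-0.99, q = 0.0445). In the direct tests it was higher with IL-1β (1.5, q = 0.0201) and with IL-6 (1.52, q = 0.0106) than with TNFα, as *Nfkbiz* was.

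**Figure D5:**
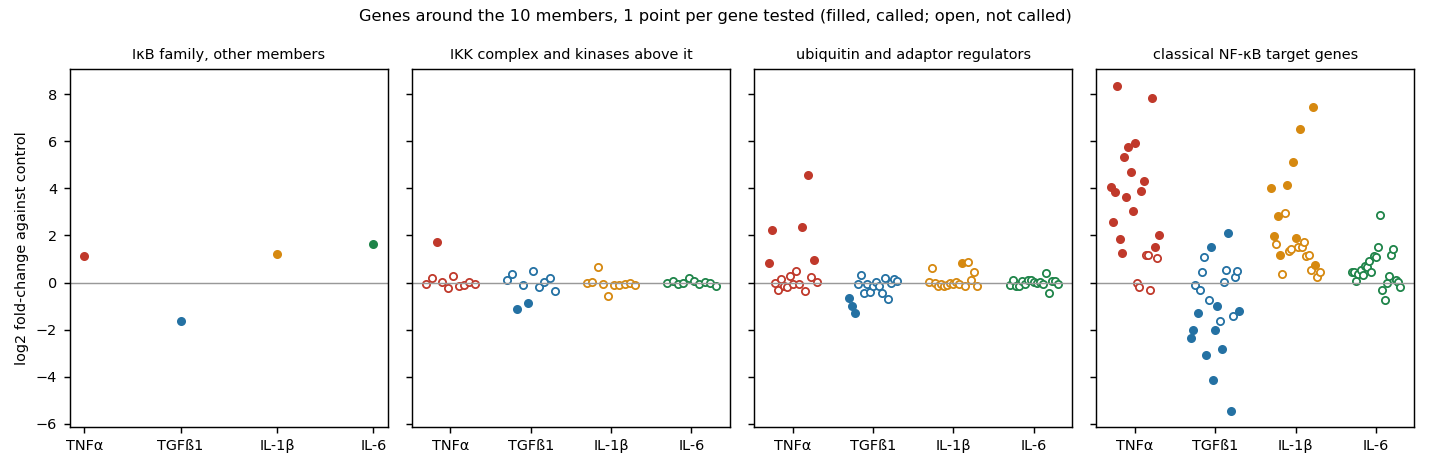
Log2 fold-changes against control of the other genes of the pathway. Each panel is a list and each point a gene tested (filled, called; open, not called), by cytokine along the x axis; against control the IKK list spans -1.12 to 1.74 with 1 gene called for TNFα and 2 for TGFß1, and the target genes spread from -5.43 to 8.36.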

How the data were processed

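MEFs of the line Balb/c/3T3 clone A31 were measured on 15 one-color Agilent arrays, 3 in each of 5 groups taken from the sample labels. The authors labelled RNA with Cyanine 3, scanned the arrays and extracted each spot with Agilent Feature Extraction 10.7.3.1, as the submitters' processing notes state. The deposited values are spot intensity on a linear scale, with background subtracted by that software, and carry no between-array normalization. The series value table held the same values as the scanner files. Control spots and outlier flags were left out and no spot was saturated. The signals of spots of a probe were averaged after log2 transformation, and the array's 75th percentile over spots that are not controls was subtracted. Probes well above background on all arrays of at least 1 group were tested (29334 of 56605). The limit of precision is the number of arrays.

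All 15 arrays entered 1 linear model with 5 groups in R 4.3.3 with limma 3.58.1 (lmFit, eBayes; two-sided), and p-values were adjusted by Benjamini-Hochberg across the tested probes. Calls required q below 0.05 and an absolute fold-change of at least 1.5. The labels do not say that arrays are of separate cultures; the study states for its TNFα, TGFß1 and control arrays that they are biological replicates of 3 separate experiments, and does not state it for IL-1β and IL-6, where p-values may measure technical spread. Probes were named through RefSeq transcript identifiers (GRCm38.p6), which matched 33767 probes to 1 gene each. The named genes were all 10 members, the 3 largest called rises and falls of each pathway list in each comparison with control whose arrays did not overlap, and the 3 genes with the highest Pearson's r to each member; *Cxcl2*, *Il6* and single values outside this rule were named after their values were seen. The members and lists were chosen with earlier results of these data known. Analysis code was tested on simulated data.

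The label numbers form 3 runs with 1 array of each group. With the slide removed, deviations from the group means of arrays in the same run correlated across probes with r of 0.114 to 0.671 in all 30 pairs of groups, against 2 of 60 pairs above 0.1 for different runs, so that the runs pair the arrays. Alternatives were other background correction (normexp on the median signal, since the files used here hold no mean signal, with an offset of 50), scaling, filters, call rules, the slide and the run as blocks, fits of the compared groups alone, the mean of a gene's probes, and each array left out in turn.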

Additional observations from a re-analysis of the deposited data

How the results depend on the processing

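No value of a called gene changed direction under any alternative. Over the 8 comparisons, calls of the 10 genes were kept in 425 of 457 values under other settings and in 666 of 690 values with 1 array left out, and 25 of 1992 values switched sign without a call in either fit. For TGFß1 against control, 4 genes were called, and 1 with normexp background correction, 2 with scaling to the array median and 0 with a 2-fold criterion (4 at an unadjusted p under 0.05 in limma). For IL-1β against control, 5 were called, and 3 with scaling to the array median and 1 in the fit of the compared groups alone. For IL-6 against control, 1 was called, and 0 with the median and 0 with the compared groups alone (1 at an unadjusted p under 0.05 in both). For IL-1β against IL-6, a comparison added after seeing the data, 4 were called, 2 with the median, 0 with the compared groups alone (6 at an unadjusted p under 0.05), and 2 to 4 with 1 array left out. The cause was not tested, except that the compared groups alone leave 6 arrays for each fit. The other counts of the 10 genes were within 1.5 times of the reported ones. Counts of the pathway lists were less steady. Under other settings 40 of them moved beyond 1.5 times and 344 did not. With 1 array left out 36 moved and 444 did not.

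Adding the slide as a block called 9, 3, 6 and 1 genes for TNFα, TGFß1, IL-1β and IL-6 against control, and 8 for IL-1β against TNFα. The shares of all named genes given above are from the fit without the slide, and none is given for this fit. These counts alone are thus no result about the members. With the runs and the slide as blocks, the values that pair the arrays, the counts of members were the same as with the slide alone. Over all probes, the slide block gave 37 calls with IL-6 in place of 19 and 197 for IL-1β against IL-6 in place of 123, and the runs and the slide 4513 with TNFα in place of 2986, 320 with IL-1β in place of 74, 228 with IL-6, 3073 for IL-1β against TNFα in place of 1416, 4126 for IL-6 against TNFα in place of 2546 and 518 for IL-1β against IL-6 in place of 123. The run alone gave 163 with IL-1β, 68 with IL-6, 2441 for IL-1β against TNFα and 322 for IL-1β against IL-6. Normexp gave 3482 with TGFß1 in place of 5283. The array median gave 47 with IL-1β, 12 with IL-6, 932 for IL-1β against TNFα and 70 for IL-1β against IL-6, and it shifted the median of all probes for TNFα against TGFß1 to -0.14 from -0.02. Without a filter the counts were 9 with IL-6, 918 for IL-1β against TNFα and 60 for IL-1β against IL-6. The compared groups alone gave 16 with IL-1β, 0 with IL-6 (695 at an unadjusted p under 0.05 in limma), 710 for IL-1β against TNFα and 6 for IL-1β against IL-6. A 2-fold criterion gave 1589 with TNFα, 2684 with TGFß1, 804 for IL-1β against TNFα, 2095 for TNFα against TGFß1 and 1434 for IL-6 against TNFα. With 1 array left out the counts were 1896 (without TNFα 4) to 3043 with TNFα, 36 (without control 1) to 78 with IL-1β, 5 (without control 1 or control 6) to 22 with IL-6, 688 (without IL-1β 10) to 1547 for IL-1β against TNFα and 54 (without IL-6 13) to 140 for IL-1β against IL-6.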
